A study of Mus musculus with 4 samples.

Results

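This account covers the response of wild-type mouse macrophages to bacterial lipopolysaccharide (LPS), read from 2 of the 4 libraries of a study of the microRNA miR-7. The cells were bone marrow-derived macrophages, grown from marrow progenitors of C57BL/6 mice aged 8 to 10 weeks. One wild-type (WT) library came from unstimulated cells and the other from cells given LPS at 100 ng/mL for 12 h. The remaining pair, miR-7 deficient cells without and with the same LPS treatment, is used only for values set beside the wild-type ones. How that deficiency was made is not given in the sources used here. Polyadenylated RNA was sequenced, and each group held 1 library, so no difference between libraries could be tested against a spread between replicates.

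LPS, the lipid of the outer membrane of Gram-negative bacteria, is handed by CD14 to the receptor TLR4 on the macrophage surface. From there the MyD88 branch leads to NF-kB and MAP kinases, which drive cytokine and chemokine genes. The TRIF branch leads to interferon beta, whose secreted protein acts back on the cells through its receptor and switches on interferon-stimulated genes. Activated macrophages are also known for a shift towards glycolysis, for nitric oxide made by Nos2 and for itaconate made by Acod1.

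Gene counts summed to 40745230 in the unstimulated and 39178290 in the LPS library. Of 52550 gene entries, 15846 had 10 or more counts in either library and were measured. Levels are in CPM, the usual unit of counts scaled to depth, with library sizes scaled by TMM, a factor that makes the bulk of genes equal between libraries. A log2 ratio is LPS over unstimulated, with an exact Clopper-Pearson 95% interval that covers counting error only, since PCR copies are not independent molecules. A gene was called higher or lower where its whole interval lay beyond 2-fold, which says nothing about variation among mice or cultures. In bulk RNA, fewer cells of a type and less RNA per cell cannot be told apart. Low counts bunched at multiples of 4 and just above: among protein-coding genes sharing no exonic bases, 48 had 3 counts, 246 had 4 and 42 had 6 in the unstimulated library. Intervals at low counts may therefore be too narrow, so where a library had 0 counts the fold is a lower bound that puts 12 counts in their place (0.256 CPM unstimulated, 0.362 CPM with LPS).

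The cell label held against defining markers. All 14 macrophage markers were measured, among them Csf1r, the receptor of the macrophage growth factor, with 2161 CPM unstimulated and 1513 CPM with LPS, and Adgre1 (F4/80), with 429 and 922 CPM. Their summed level was 38465 CPM unstimulated and 22664 CPM with LPS, in which Lyz2 and Ctsd carried the larger part. Most defining genes of other cells were at or near 0. Ly6g, Elane and Mpo of neutrophils, Pax5 of B cells, Cd3d and Cd3g of T cells and Epcam of epithelium had 0 counts in both wild-type libraries. Some genes of the other lists were not, and all 7 of the monocyte list were measured. Lower with LPS were Cd28 of the T cell list (80.8 and 4.70 CPM), Siglecf of the eosinophil list (48.3 and 7.96 CPM), Clec9a of the dendritic cell list (23.1 and 4.34 CPM) and Vwf of the endothelial and megakaryocyte lists (392 and 149 CPM). Higher were Ly6c2 (13.1 and 105 CPM) and Vcan (20.1 and 331 CPM) of the monocyte list and Ccr7 of the dendritic cell list. Kdr of the endothelial list (36.3 and 162 CPM) and Bst2 of the plasmacytoid dendritic cell list (66.3 and 722 CPM) were higher too. Ccr2, also of the monocyte list, was lower (23.7 and 1.09 CPM). Csf3r of neutrophils (31.9 and 37.2 CPM) and Acp5 of osteoclasts (144 and 194 CPM) passed neither limit. The part of such cells in the results was not tested.

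Stretches of 9 promoters, chosen because each held a short motif bound by a factor of this pathway or of the cell cycle, are printed to show what the motifs look like. Genes with larger interval bounds and no match in the table were passed over. They are 120 bases long, from RefSeq's promoter table on GRCm38.p6, written 5′ to 3′ along each gene, with every match of the motif named, on either strand, in capitals. The first 3 belong to the interferon-stimulated genes with the largest interval bounds whose promoter held the interferon response element GAAANNGAA.
Ifit1bl1, chr19:34602097-34602216, minus strand: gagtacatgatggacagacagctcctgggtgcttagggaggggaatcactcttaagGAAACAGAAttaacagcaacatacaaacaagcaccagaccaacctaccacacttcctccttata
Ifi205, chr1:174031826-174031945, minus strand: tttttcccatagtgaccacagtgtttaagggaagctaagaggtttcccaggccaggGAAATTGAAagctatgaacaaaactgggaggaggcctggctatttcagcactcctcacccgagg
Ifit1, chr19:34640724-34640843, plus strand: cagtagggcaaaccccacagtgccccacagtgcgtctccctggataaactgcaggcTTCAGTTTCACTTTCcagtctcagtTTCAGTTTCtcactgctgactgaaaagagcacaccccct
In the Ifit1 stretch there were 3 matches, 2 of them overlapping, all on the strand opposite the gene.

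The next 3 are the cytokine, chemokine and effector genes chosen in the same way for the NF-kB motif GGANNTTCC. Its first base lay 43 bases before the start of Il6, 70 before that of Cxcl1 and 158 before that of Cxcl10.
Il6, chr5:30013015-30013134, plus strand: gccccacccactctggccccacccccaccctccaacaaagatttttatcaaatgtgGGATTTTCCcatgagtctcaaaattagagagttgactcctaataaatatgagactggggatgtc
Cxcl1, chr5:90891119-90891238, plus strand: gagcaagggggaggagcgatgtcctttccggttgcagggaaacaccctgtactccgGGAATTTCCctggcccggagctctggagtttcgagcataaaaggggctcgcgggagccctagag
Cxcl10, chr5:92348984-92349103, minus strand: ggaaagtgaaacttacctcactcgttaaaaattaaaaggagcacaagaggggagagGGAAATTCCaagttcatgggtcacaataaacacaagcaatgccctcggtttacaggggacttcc

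The last 3 come from mitotic genes that were lower with LPS and show the cell cycle homology region TTTGAA, a short element of genes active late in the cell cycle.
Ckap2, chr8:22185858-22185977, minus strand: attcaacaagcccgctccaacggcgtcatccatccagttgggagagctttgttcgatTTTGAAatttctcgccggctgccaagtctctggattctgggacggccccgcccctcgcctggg
Kif4, chrX:100625975-100626094, plus strand: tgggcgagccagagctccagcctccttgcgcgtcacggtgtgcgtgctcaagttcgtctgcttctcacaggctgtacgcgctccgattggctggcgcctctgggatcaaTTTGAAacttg
Anln, chr9:22389177-22389296, minus strand: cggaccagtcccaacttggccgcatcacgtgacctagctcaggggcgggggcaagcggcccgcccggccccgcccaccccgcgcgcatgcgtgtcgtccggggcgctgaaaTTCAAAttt

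Counted over promoters of 300 bases, the interferon response element was held by 33 of 56 promoters of the interferon-stimulated list (58.9%), against 8.56% of all 32851 promoters in the table. TTTGAA was held by 40 of 59 promoters of the mitosis list (67.8%), against 17.9% of all, and the motif CCAAT by 72.9%, against 37.4%. The E2F motif TTTNGCGC was held by 21.4% of 56 promoters of replication genes and by 1.38% of all. The hypoxia element ACGTG was held by 59.5% of 37 promoters of hypoxia-induced genes and by 19.6% of all. The NF-kB motif was held by 15.8% of 38 promoters of inflammatory effectors and by 4.26% of all, AP-1 (TGANTCA) by 18.4% and 7.81%, and GAS (TTCNNNGAA) by 21.1% and 8.30%. All promoters include those of genes not measured here. Promoters of measured genes that passed neither limit held the interferon response element in 6.77%, TTTGAA in 11.9% and CCAAT in 38.1%. They held the E2F motif in 2.57%, ACGTG in 26.1%, NF-kB in 4.51%, AP-1 in 4.72% and GAS in 6.78%. For all higher genes, all lower genes, cytokines and chemokines the same count was void, because under 80% of their members had a promoter in the table (76.5%, 78.3%, 63.3% and 68.2%). Motifs were not particular to the lists they are given for. TTTGAA was held by 28.9% of effector, 23.2% of interferon-stimulated and 12.5% of replication promoters. AP-1 and NF-kB were held by 25% and 14.3% of interferon-stimulated promoters, and by 1.69% and 5.08% of mitosis promoters. A match is a run of letters and not a site shown to be bound.

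Of the 15846 measured genes, 2502 were higher with LPS (15.8%), 2123 were lower (13.4%) and 11221 passed neither limit, with a median log2 ratio of -0.03. The higher genes held 9.97% of the unstimulated library's counts and 40.1% of the LPS library's. The lower genes held 13.97% and 3.41%. Called genes were not spread evenly over levels, with each gene classed by the library where it stood higher. Among the 203 genes at 1000 CPM or more there, 115 (56.7%) were higher with LPS and 8 (3.94%) lower. Between 10 and 100 CPM the shares were 11.5% and 11.7%. A gene could enter a class through the changed level itself, which sets part of these shares. With library sizes taken as total counts in place of TMM, every log2 ratio moved by -0.44 and the calls were 1886 higher and 3538 lower, so that higher genes made up 34.8% of calls in place of 54.1%. With intervals computed from counts divided by 4, they were 1793 and 1242, and the loss lay mostly at low levels: under 1 CPM, 31 of 434 higher and 0 of 391 lower calls were left, and at 100 CPM or more, 690 of 723 and 223 of 237.

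**Figure D1:**
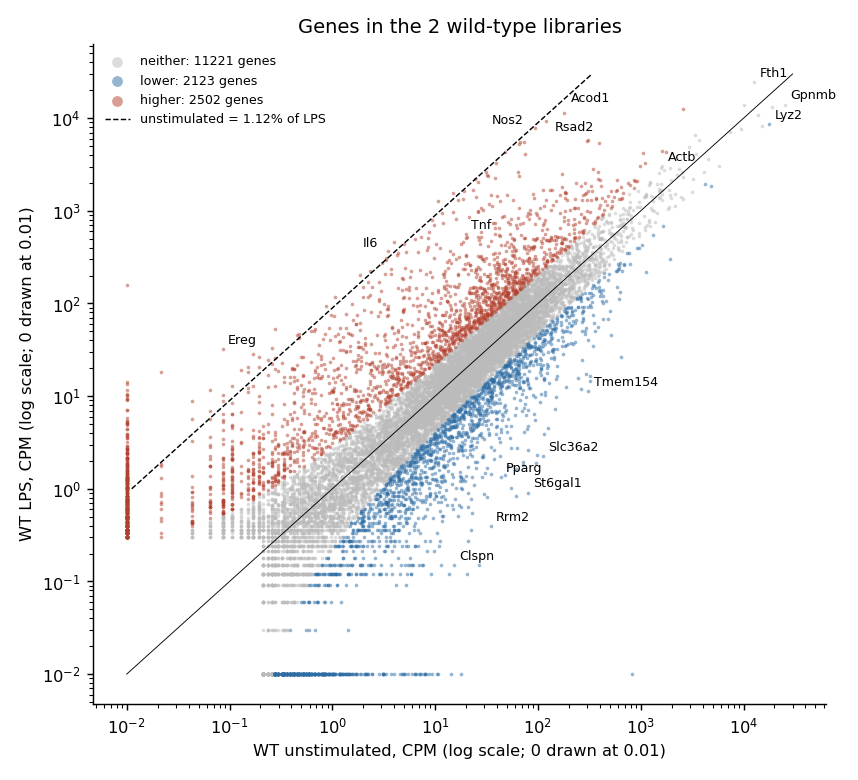
Each point is a gene, with its CPM in the WT unstimulated library (x, log scale) and in the WT LPS library (y, log scale), coloured by call (2502 higher, 2123 lower, 11221 neither). The thin line marks equal levels, and the dashed line marks an unstimulated level of 1.12% of the LPS level, the median of the 25 lowest shares at 100 CPM or more.

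Among the receptors through which LPS is sensed, Tlr4 had 14.5 CPM unstimulated and 44.5 CPM with LPS, a log2 ratio of 1.61 (1.48 to 1.75). In the deficient pair Tlr4 had 11.8 and 6.09 CPM, a ratio of -0.95 (-1.19 to -0.72). The signs were thus opposite in the genotypes, and this difference was not tested. Cd14, which loads LPS onto the receptor, had 97.7 and 908 CPM, 9.30-fold higher. Of 36 measured pattern receptors, 20 were higher and 3 lower (median 1.49; 18 and 8 with total counts), and the formyl peptide receptors were among the highest: Fpr1 had 2.01 and 151 CPM (75.4-fold) and Fpr2 had 5.24 and 362 CPM (69.0-fold). Clec4e, a lectin that binds mycobacterial glycolipids, had 38.0 and 2285 CPM.

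Part of the genes between the receptor and the nucleus was called. Of 20 NF-kB subunits and inhibitors, 14 were higher and 0 lower (median 1.92). Tnfaip3, which encodes the deubiquitinase A20 that shuts off NF-kB, had 44.9 and 863 CPM (19.2-fold), and Nfkbiz, a nuclear cofactor, had 4.85 and 114 CPM (23.5-fold). Of 30 adaptors and proximal kinases, 12 were higher and 1 lower (10 and 3 with total counts). Among these Traf1 had 12.3 and 191 CPM and Ripk2, the kinase behind the NOD receptors, had 15.3 and 155 CPM. Of 30 MAP kinases and phosphatases, 10 were higher (33.3%) and 3 lower (10%, beside 13.4% over all measured genes). With total counts 7 were higher and 5 lower. Mapkapk2, a kinase below p38, had 179 and 860 CPM. Of 29 genes of JAK-STAT signalling and its feedback, 13 were higher and 0 lower (15 and 1 in the deficient pair). Stat4, the mediator of IL-12 signals, had 0 counts unstimulated and 383 counts with LPS, at least 45.0-fold higher, although it shares exonic bases with another entry.

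Lists of transcription factors were mixed. Of 33 AP-1, ATF and immediate early factors, 14 were higher and 6 lower, but 7 and 11 with total counts, and the median of 0.86 was -0.10 without genes that share exonic bases. Fosl1, a Fos family member, had 1.15 and 38.1 CPM. Atf3, a stress-induced repressor, had 372 and 830 CPM, a call lost with total counts and with upper-quartile factors. Of 26 interferon regulatory and C/EBP factors, 8 were higher and 1 lower, but 3 and 2 with total counts, where the median of 0.35 turned to -0.09. Irf7, the amplifier of interferon genes, had 28.0 and 1080 CPM (38.6-fold), and Irf1 had 19.2 and 101.4 CPM. Of 43 lineage factors, KLF proteins and nuclear receptors, 7 were higher (16.3%, near the 15.8% over all measured genes) and 10 lower (23.3%, beside 13.4%). With total counts 4 were higher and 14 lower. Pparg, the lipid-sensing nuclear receptor, had 43.5 and 1.33 CPM (32.8-fold lower), and Epas1, which encodes HIF-2 alpha, had 21.01 and 0.271 CPM, the latter from 9 counts. Spi1, the lineage factor PU.1, had 314 and 261 CPM.

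**Figure D2:**
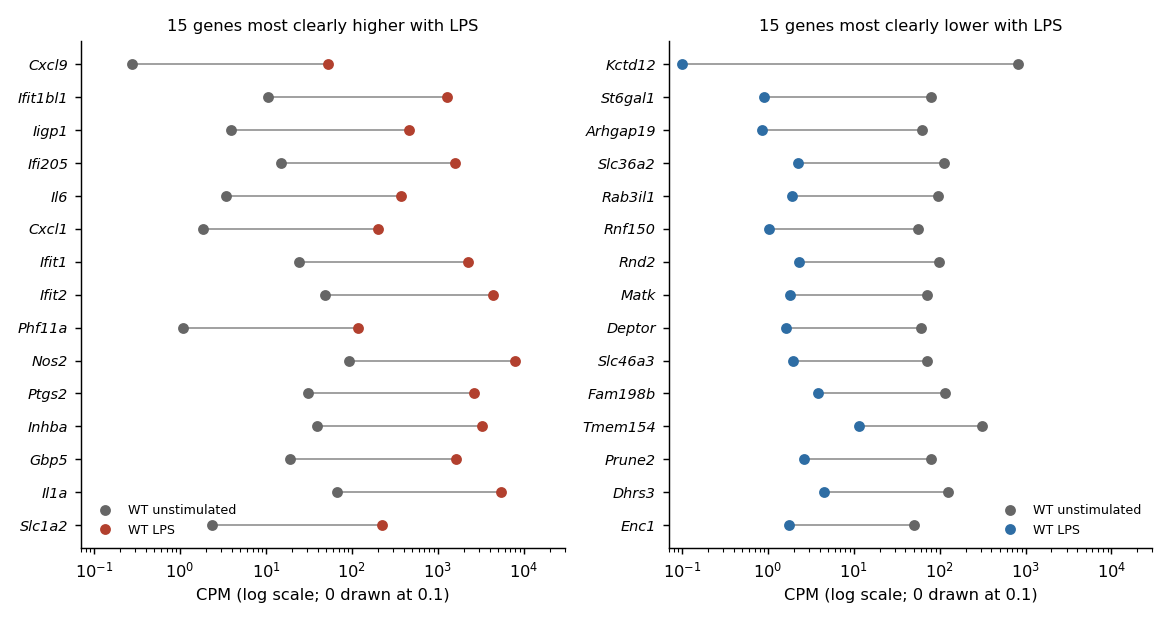
CPM (log scale) in the WT unstimulated (grey) and WT LPS (coloured) library for the 15 protein-coding genes with the largest interval bound in each direction among those at 50 CPM or more in a library. The higher genes start between 0.278 and 93.0 CPM, and the lower genes end between 0 and 11.4 CPM.

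Most genes of secreted signals were higher. Of 30 cytokines, 25 were higher and 1, Il16, was lower. Their summed level was 391 CPM unstimulated and 16621 CPM with LPS, and the median log2 ratio was 5.01, or 3.76 with the 5 members that had a count of 0 set to the floor. Il1b and Il1a, the fever-inducing interleukins, had 73.1 and 5566 CPM and 67.1 and 5510.5 CPM. Il6, which drives the acute phase response, had 3.46 CPM (162 counts) and 369 CPM (12219 counts), a ratio of 6.73 (6.51 to 6.97). Tnf had 19.8 and 557 CPM (28.2-fold). Il33, an alarmin, had 0 and 454 counts, at least 53.4-fold higher. Each of these stood below 100 CPM in the unstimulated library.

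Of 23 chemokines, 18 were higher and 0 lower, and the 5 others included Ccl6, at 2384 and 2861 CPM. Ccl5, which attracts T cells and monocytes, had 64.9 and 5296 CPM (81.6-fold). Cxcl1, a neutrophil attractant, had 1.86 and 202 CPM (108-fold), and Cxcl9, an interferon-induced T cell attractant, had 0.278 and 52.8 CPM (190-fold, from 13 and 1751 counts). The 31 growth and differentiation factors were mixed, with 13 higher and 8 lower. Inhba, the subunit of activin A, had 39.0 and 3266 CPM (83.7-fold), and Ereg, a ligand of the EGF receptor, had 4 and 1067 counts, with a log2 ratio of 8.56 (7.20 to 10.4), though it shares exonic bases with another entry. Lgals3, which encodes galectin-3, had 4189 and 1958 CPM, and Spp1, which encodes osteopontin, had 2264 and 2411 CPM.

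Receptors for these signals differed by kind. Of 43 cytokine receptors, 16 were higher (37.2%) and 5 lower (11.6%, near the 13.4% over all measured genes). With total counts 11 were higher and 7 lower. Cd40, a receptor for T cell help, had 8.64 and 587 CPM (68.0-fold), and Tnfrsf1b, which encodes TNF receptor 2, had 1054 and 4172 CPM. Of 48 chemokine and lipid G-protein-coupled receptors, 13 were higher and 19 lower (median -0.37), and with counts divided by 4 the calls were 13 and 13. Ccr7, which guides cells to lymph nodes, had 4.403 and 148 CPM (33.6-fold). Hcar2, the receptor of niacin and hydroxybutyrate, had 5.69 and 194 CPM. On the other side C3ar1, the receptor of complement fragment C3a, had 655 and 222 CPM.

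Interferon-stimulated genes had the largest share of higher members among the 54 lists. Of 61 measured members, 59 were higher and 0 lower (median 4.23), and the other two were Trim25 and Ifi207. Their summed level was 3008 CPM unstimulated and 62281 CPM with LPS, and in the deficient pair 60 of 61 were higher (median 4.58). Rsad2, which encodes the antiviral enzyme viperin, had 120 and 9408 CPM (78.3-fold) and alone took 0.796% of the LPS library's counts. Ifit2, an RNA-binding antiviral protein, had 48.3 and 4336 CPM (89.8-fold). Ifit1bl1 had 10.6 and 1274 CPM (121-fold), and Iigp1, a GTPase that attacks parasite vacuoles, had 3.95 and 460 CPM (116-fold). The count was 59 higher and 0 lower both with total-count scaling and with counts divided by 4.

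Of 42 measured inflammatory effectors, 31 were higher and 3 lower (median 3.08). Acod1, the enzyme that makes itaconate, had 179 and 11469 CPM (64.01-fold) and Nos2, which makes nitric oxide, had 93.0 and 7873 CPM (84.7-fold, log2 6.40, 6.36 to 6.45). Ptgs2, the inducible cyclooxygenase, had 31.1 and 2619 CPM (84.2-fold). The 3 lower members were Mmp8, Lyz1 and Lyz2. Lyz2, the macrophage lysozyme, had 17670.0 and 8664 CPM, a ratio of -1.03 (-1.03 to -1.02) that lay just past the limit and did not pass it with DESeq2 size factors. Alternative activation genes split, with 6 higher and 6 lower of 20, and their median of 0.00 was -0.44 with total counts and -0.15 without genes that share exonic bases. Arg1, the arginase often used to mark that state, had 48 and 377 counts (11.1-fold), beside 0 and 4 counts in the deficient pair.

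Antigen presentation divided by class. Of 22 genes of MHC class I and its peptide supply, 18 were higher and 0 lower (median 2.31), with H2-Q7 at 8.59 and 406 CPM and B2m, the light chain of class I, at 3338 and 6653 CPM, a ratio of 0.995 (0.986 to 1.004) that did not pass the limit. H2-Q6 and H2-Q7 are near-identical copies, so their split is uncertain. Of 14 class II genes, 2 were higher, H2-Oa and March1 (14.3%, near the 15.8% over all measured genes), and 0 lower. Both calls were lost with total counts, which gave 0 higher and 3 lower, and with upper-quartile factors. Cd74, the class II invariant chain, had 3485 and 4084 CPM. Of 32 co-stimulators and checkpoint ligands, 21 were higher and 4 lower, with Cd274, which encodes PD-L1, at 340 and 2854 CPM (8.40-fold) and Slamf1 at 9 and 879 counts (138-fold). Btla, an inhibitory receptor, had 0 and 337 counts, at least 39.6-fold higher.

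Receptors of uptake held more lower than higher members, and matrix genes more higher than lower ones. Of 49 scavenger, Fc and phagocytic receptors, 10 were higher and 21 lower (median -0.43). Marco, a scavenger receptor for bacteria, had 5.07 and 243 CPM (48.0-fold), and Olr1, a receptor of oxidised LDL, had 26.1 and 518 CPM (19.9-fold). Mfge8, which bridges dying cells to phagocytes, had 4809 and 1868 CPM (2.57-fold lower), and the fungal receptor Clec7a had 2157 and 1128 CPM, short of the limit. Of 47 cathepsin and lysosome genes, 1 was higher and 8 lower (17.0%, near the 13.4% over all measured genes), and 17 were lower with total counts. Ctsd had 15130 and 8202 CPM, Psap 19066 and 13187 CPM, and Tpcn1, a calcium channel of the lysosome, 149 and 9.77 CPM (15.2-fold lower). Of 37 metalloproteinase and matrix genes, 18 were higher and 7 lower, beside 8 and 10 in the deficient pair. Mmp12, the macrophage elastase, had 10166 and 13865 CPM in wild type and 11099 and 7350.1 CPM in the deficient pair.

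**Figure D3:**
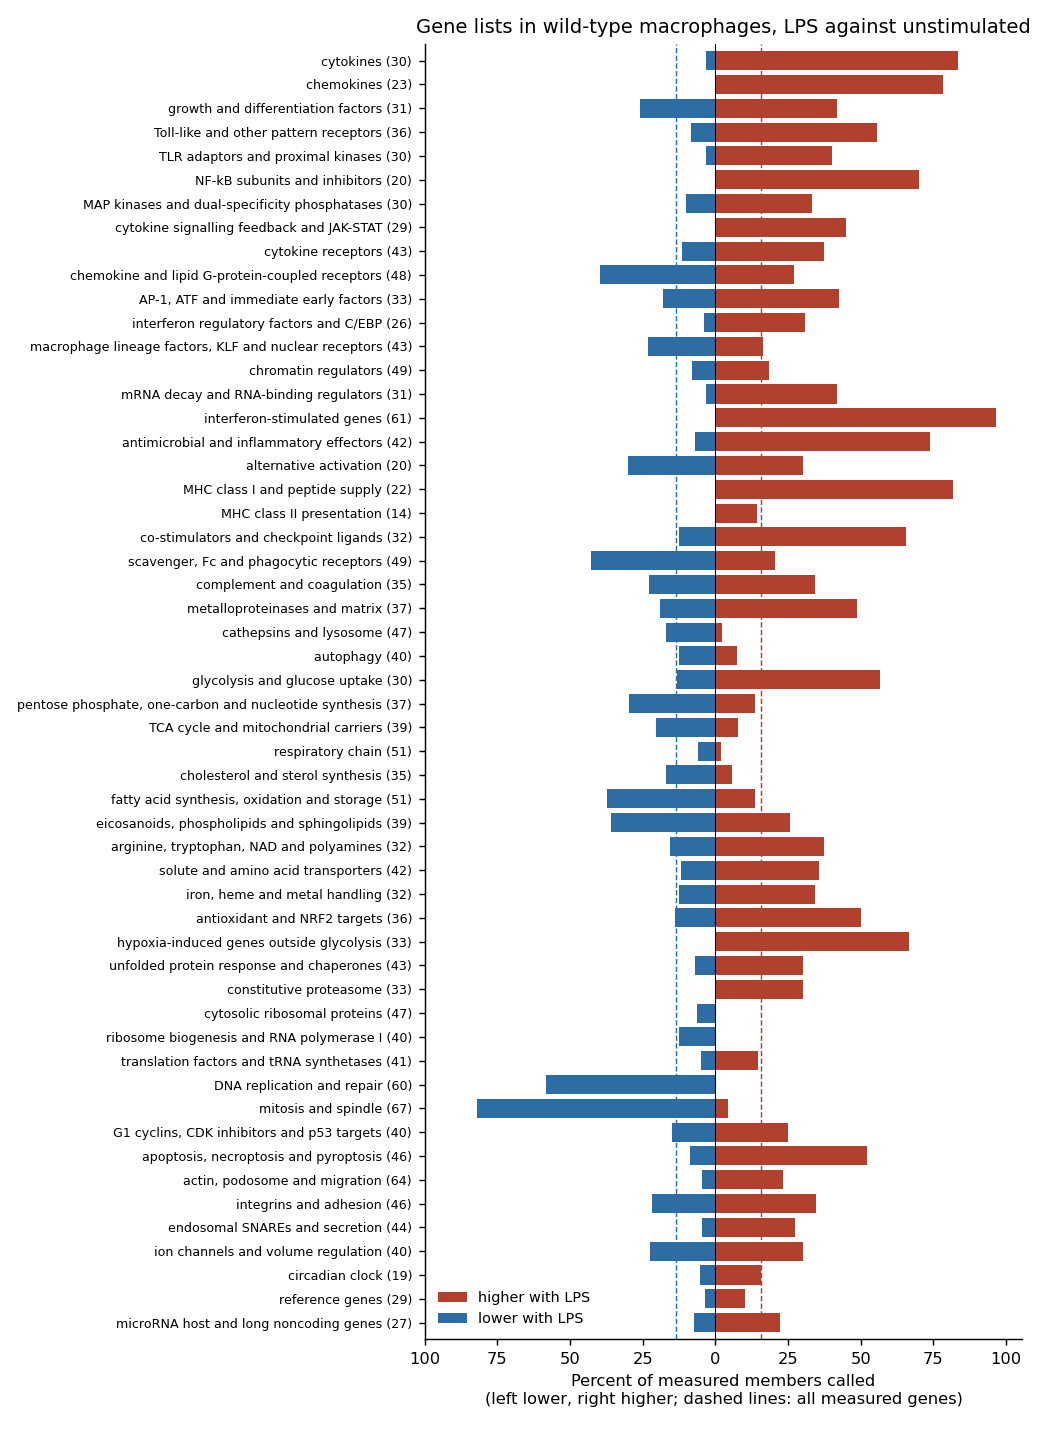
Percent of measured members of each of 54 gene lists that were higher (right) or lower (left) with LPS in wild type, with the number measured in brackets. Dashed lines mark the shares over all measured genes, 15.8% higher and 13.4% lower, and interferon-stimulated genes and mitosis stand farthest out on either side.

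Metabolic genes separated by pathway. Of 30 genes of glycolysis and glucose uptake, 17 were higher and 4 lower (median 1.08), beside 9 and 4 in the deficient pair (median 0.59). Slc2a1, the glucose carrier GLUT1, had 113 and 1133 CPM (9.99-fold), Hk2, the inducible hexokinase, had 81.1 and 816 CPM (10.1-fold), and Gapdh had 454 and 1289 CPM. Hypoxia-induced genes outside glycolysis went the same way, with 22 of 33 higher and 0 lower (median 1.67), beside 10 and 2 in the deficient pair (median 0.48). Ero1l, an oxidase of the endoplasmic reticulum, had 56.7 and 1302 CPM (22.97-fold), with a ratio of 1.07 in the deficient pair against 4.52 here. Ak4, a mitochondrial adenylate kinase, had 1.05 and 73.6 CPM (70.2-fold), Bnip3, a mitophagy receptor, had 13.1 and 283 CPM, and Adm, which encodes adrenomedullin, had 12 and 1098 counts. The difference between the pairs was not tested.

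Lists of mitochondrial and lipid genes differed. Of 51 nuclear genes on the respiratory chain list, 1 (Cycs, cytochrome c) was higher and 3 lower (9 with total counts). The lower ones were the subunit Ndufs8 and, not subunits of the chain, Ppargc1b and Ucp2. Ucp2 had 622 and 132 CPM (4.71-fold lower). The 37 mitochondrial entries had 0 counts in all libraries, so genes encoded there were not measured. Of 51 genes of fatty acid synthesis, oxidation and storage, 7 were higher (13.7%, near the share over all genes) and 19 lower (median -0.64). Acsl1, which activates fatty acids, had 63.95 and 2614 CPM (40.9-fold), and Fabp4, a fatty acid carrier, had 92.04 and 6.45 CPM (14.3-fold lower). Of 39 genes of eicosanoids, phospholipids and sphingolipids, 10 were higher and 14 lower (6 and 16 with total counts). Of 35 cholesterol genes, 2 were higher and 6 lower (17.1%, near the share over all genes), and 19 were lower with total counts and 14 with upper-quartile factors. The higher ones were Ch25h, which makes 25-hydroxycholesterol (1.73 and 74.9 CPM), and the exporter Abca1 (199 and 556 CPM). Of 32 genes of arginine, tryptophan, NAD and polyamine metabolism, 12 were higher and 5 lower, and the median of 0.21 turned to -0.23 with total counts. The arginine carrier Slc7a2 had 299 and 5732 CPM (19.2-fold). Antioxidant and NRF2 target genes were higher in 18 of 36 and lower in 5, among them Sod2, the mitochondrial superoxide dismutase, at 90.4 and 1525 CPM (16.9-fold), and Prdx1 at 2555 and 12609 CPM (4.94-fold). Fth1, the ferritin heavy chain, took the most counts of the LPS library (2.07%) and had 12707 and 24511 CPM.

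Lists of translation, protein turnover and chaperones differed, and how many genes were called depended on the scaling. Of 47 cytosolic ribosomal proteins, 0 were higher and 3 lower (median -0.58), and with total counts 22 were lower. Rplp0 had 1164 and 699 CPM, and Rpsa 740.1 and 351 CPM. Of 41 translation factors and tRNA synthetases, 6 were higher (14.6%, near the 15.8% over all measured genes) and 2 lower (4.88%, beside 13.4%). With total counts 4 were higher and 6 lower. Of 40 genes of ribosome biogenesis and RNA polymerase I, 0 were higher and 5 lower (12.5%, near the 13.4% over all measured genes), and 12 were lower with total counts. Of 33 constitutive proteasome genes, 10 were higher (30.3%, beside 15.8% over all measured genes) and 0 lower (median 0.79). With total counts 3 were higher. Of 43 unfolded protein response and chaperone genes, 13 were higher and 3 lower (9 and 6 with total counts), and their median of 0.25 turned to -0.19 with total counts. Hspa1a and Hspa1b, near-identical copies of an inducible chaperone, had 5.58 and 150 CPM and 4.94 and 118 CPM.

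**Figure D4:**
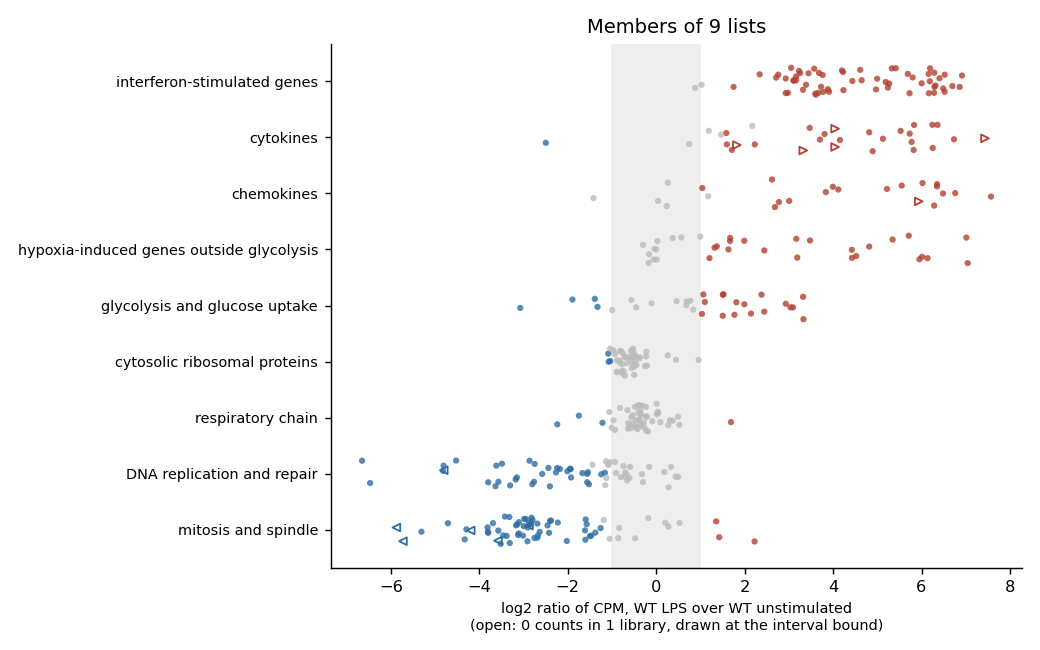
Each point is a measured member of 1 of 9 lists, at its log2 ratio of WT LPS over WT unstimulated CPM (x axis), coloured red for higher, blue for lower and grey for neither, with the 2-fold band shaded. Interferon-stimulated genes (59 of 61 higher) and mitosis genes (55 of 67 lower) lie on opposite sides, and ribosomal proteins lie mostly inside the band. Open triangles are members with 0 counts in 1 library, drawn at their interval bound.

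Proliferation genes were lower as a body. Of 67 mitosis and spindle genes, 55 were lower and 3 higher (median -2.84, or -2.75 with the 5 members that had a count of 0 set to the floor), beside 53 and 2 in the deficient pair. With counts divided by 4, 45 were lower. Plk1, the polo-like kinase that drives entry into mitosis, had 307 and 0 counts, at least 18.1-fold lower though it shares exonic bases with another entry, and Nuf2, of the kinetochore, had 277 and 0 counts, at least 16.4-fold lower. The 3 members that were higher were Pttg1, which encodes securin, Mki67, the Ki-67 antigen, and Tpx2, a spindle assembly factor. Mki67 had 65.5 CPM (3066 counts) and 176 CPM (5837 counts), a ratio of 1.43 (1.36 to 1.49), beside 1.52 in the deficient pair, and it shares no exonic bases with another entry. With total counts Mki67 no longer passed the limit, and 1 member of the list was higher. Pttg1 had 389 and 1289 counts and Tpx2 had 778 and 1412 counts; both were picked out because they went against their list.

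Replication genes were lower by a smaller median. Of 60 genes of DNA replication and repair, 35 were lower and 0 higher (median -1.56), beside 30 and 0 in the deficient pair. Clspn, a checkpoint mediator, had 15.1 CPM (708 counts) and 0.151 CPM (5 counts), and Rrm2, the small subunit of ribonucleotide reductase, had 1624 and 13 counts (88.5-fold lower). Pcna, the replication clamp, had 382 and 171 CPM (2.24-fold lower). Of 40 G1 cyclins, CDK inhibitors and p53 targets, 10 were higher (25%) and 6 lower (15%, near the 13.4% over all measured genes). With total counts 8 were higher and 10 lower. The median of 0.19 turned to -0.25 with total counts and -0.02 with upper-quartile factors. Cdkn1a, which encodes the CDK inhibitor p21, had 119 and 1296 CPM (10.9-fold), Ccnd2, cyclin D2, had 7.35 and 520.1 CPM (70.7-fold), and Cdkn2c, which encodes the inhibitor p18, had 423 and 4 counts. Among 46 genes of cell death, 24 were higher and 4 lower (18 and 9 with total counts), with Cflar, an inhibitor of caspase-8, at 80.004 and 958 CPM (12.0-fold) and Mcl1, a survival factor, at 545 and 1425 CPM.

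The protein-coding genes lower by the widest margin at 50 CPM or more belonged to several families. St6gal1, a sialyltransferase of the Golgi, had 80.2 CPM (3752 counts) and 0.905 CPM (30 counts). Arhgap19, a GTPase-activating protein, had 61.7 and 0.844 CPM, and Slc36a2, an amino acid carrier, had 113 and 2.26 CPM (49.8-fold lower). Deptor, an inhibitor of mTOR, had 60.7 and 1.63 CPM (37.3-fold lower), and Tmem154 had 309 and 11.4 CPM (27.2-fold lower). Kctd12 had 38081 and 0 counts, but it shares exonic bases with Gm26778, a lincRNA entry on the opposite strand with 28469 and 3670 counts, and had 34123 and 8286 counts in the deficient pair, so its 0 is uncertain. Of all called genes, 915 higher and 790 lower ones share exonic bases with another entry, and how reads in shared bases were assigned is not stated. Among the named ones are Il1a, Il1b, Cxcl10, Irf1, Irf7, Cd274, Slc2a1, Slc7a2, Acsl1, Bnip3, Cdkn1a, Ccnd2, Kif4, St6gal1 and Deptor.

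Of 481 long intergenic noncoding entries, 105 were higher (21.8%) and 81 lower (16.8%), beside 15.8% and 13.4% over all measured genes. Of 737 antisense entries, 117 were higher (15.9%) and 109 lower (14.8%), near the shares over all genes. Mir155hg, the host transcript of miR-155, had 1 and 62 counts, a log2 ratio of 6.45 (3.92 to 11.8), which rests on that 1 count: with 12 counts in its place the fold would be 7.29. The same replacement would give 125.5-fold for Ereg, 103-fold for Slamf1, 58.1-fold for Epas1, 41.8-fold for Clspn and 24.98-fold for Cdkn2c. Ptgs2os, on the strand opposite Ptgs2, had 0 and 177 counts, at least 20.8-fold higher, and Ptgs2os2 had 14 and 620 counts (62.5-fold). Malat1 and Neat1, nuclear noncoding RNAs, had 265 and 330.0 CPM and 289 and 198 CPM, and neither passed the limit. Whether reads were counted by strand is not stated, so values of antisense entries such as Slfn5os (108 and 4083 counts) cannot be told apart from those of the genes they face.

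The strongest induced genes kept a low level in the unstimulated library. For the 1982 genes that reached 100 CPM with LPS, whichever way they changed, the unstimulated level was taken as a share of the LPS level. The 25 genes with the lowest shares had a median of 1.12%. After 1 entry at 0 (Gm20431, which overlaps Tmem189 and Ube2v1), they ran from 0.829% (Ifit1bl1) to 1.28% (Rsad2). These genes were picked for low shares, which sets part of their closeness, and other higher genes kept more, such as Cd14 with 10.8%. With a limit of 20 CPM in place of 100, the median was 0.939% and the shares after the 0 began at 0.266% (Ereg). In the deficient pair the 25 lowest shares, chosen by the same rule, ran from 0.0409% (Il6) to 0.486% (Ifi44), with a median of 0.303%. In the other direction, for the 25 genes with the lowest share of their unstimulated level left with LPS, the median was 6.58% in wild type and 9.79% in the deficient pair.

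Genes were also chosen by their share in the deficient pair. There, 29 genes at 100 CPM or more in both LPS libraries had shares under 0.6%, where the choice itself keeps the deficient shares low. In wild type their shares lay between 0.829% and 2.18% (median 1.28%). Apart from Gm20431 at 0, no gene at 100 CPM or more in the wild-type LPS library had a share under 0.829%. That all 29 had a higher share in wild type was therefore set by the choice. Il6 had 162 unstimulated counts in wild type and 6 in the deficient library, beside 12219 and 14008 with LPS, so its shares were 0.940% and 0.0409%. Il12b, a subunit of IL-12, had 1511 and 140 unstimulated counts (1.32% and 0.107%), and Ccl5 had 3036 and 194 (1.23% and 0.126%). Nos2 had 4351 and 148 (1.18% and 0.158%). On a log scale the wild-type shares of the 29 genes lay closer together than the deficient ones. In percentage points they spanned more, from 0.829% to 2.18% against 0.0409% to 0.599%. The choice capped the deficient shares alone at 0.6%, so these spreads are description only.

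A further set was chosen for 0 counts in the deficient unstimulated library, with 200 or more counts in the wild-type LPS library and 20 or more in the deficient one. Among its 18 genes without shared exonic bases, 4 had 0 counts in the wild-type unstimulated library and the median share was 1.40%. Chosen at 0 in the deficient library, these genes could not have a lower share in wild type, where shares ran from 0 to 6.30%. Apol9b, of the apolipoprotein L family, had 43 and 1821 wild-type counts there (1.67%). Some induced genes had no unstimulated counts at all: Il33, C1rb, Btla, Zfp811, Pde11a, BC023105 and Gm4841, picked out for 2 or fewer of them, summed to 0 counts unstimulated and 2326 with LPS. Taking 1% of the other library's counts, scaled to depth, from each library gave 2559 higher and 2166 lower genes. In the unstimulated library it left 0 counts for 7 of the 25 genes with the lowest shares, among them Gm20431, which had 0 before. Which genes reached 0 was set by the shares that chose them, so this count adds nothing to those shares. The origin of these unstimulated counts was not tested. From count tables alone, transcripts of the unstimulated cells and reads carried over from another library cannot be told apart. The unstimulated levels of the strongest induced genes may therefore be upper limits, and their fold changes lower limits.

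**Figure D5:**
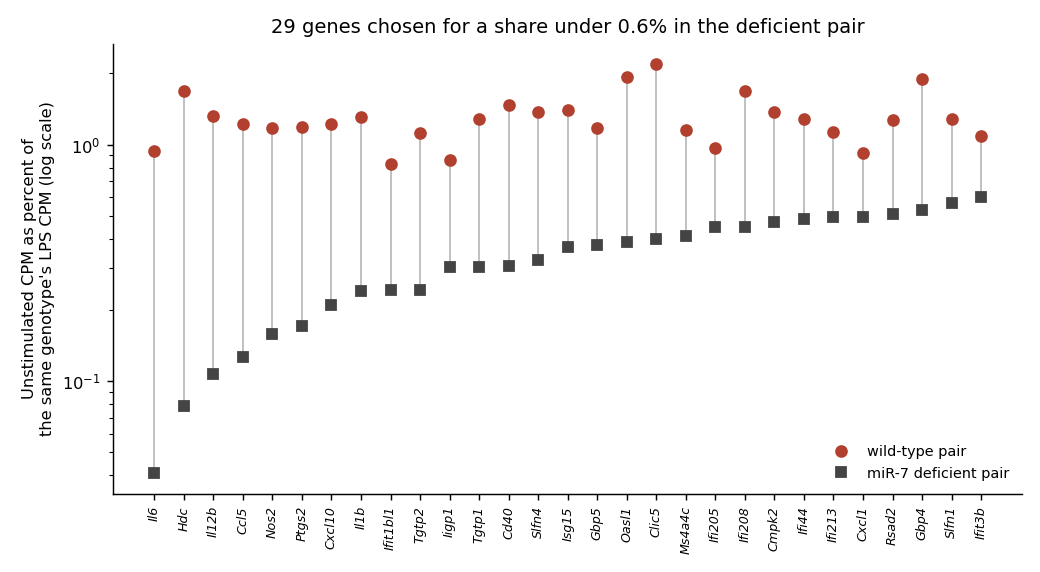
Unstimulated CPM as a percent of the LPS CPM of the same genotype (y, log scale) for the 29 genes whose share was under 0.6% in the miR-7 deficient pair, ordered by that share. Wild-type shares (circles) lie between 0.829% and 2.18% across all 29, and deficient shares (squares), which chose the genes, run from 0.0409% to 0.599%.

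Of the 2502 genes higher in wild type, 1563 (62.5%) were also higher in the deficient pair, where 12.4% of all measured genes were higher, 17 were lower there and 922 passed neither limit. Of the 2123 lower ones, 1220 (57.5%) were also lower, where 11.4% of all measured genes were lower, and 25 were higher. These pairs share no library, and each still holds 1 library a group.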

How the data were processed

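Per the series' design text, the authors used Casava 1.8.2, Cutadapt, TopHat 2.0.13 with Bowtie2, and Partek for exon annotation, and the submitters' processing notes name HTSeq and mm8. What the authors deposited are whole-number gene counts with no normalization, in a separate file for every library. IDs were matched without version to GENCODE M21 (99.7%), which gave symbols, types and overlaps on GRCm38. TMM factors (edgeR 4.0.16, R 4.3.3) came from genes at 1 CPM or more in at least 2 of the 4 libraries. Ratios and intervals were computed with scipy 1.17.1 and tested on simulated data. Members and lists were chosen with earlier results of these data known. Named genes were the 15 highest and 15 lowest protein-coding genes by interval bound at 50 CPM or more, up to 4 per list (2 by CPM, 2 by bound), the 10 with most counts per library, 5 higher and 5 lower noncoding genes, and Tlr4, Cd14, Tnf, Il6, Nos2, Arg1, Lyz2 and Actb. Csf1r, Adgre1, Cd28, Siglecf, Clec9a, Vwf, Ly6c2, Kdr, Csf3r, Acp5, Tmem189, Ube2v1, Gm26778, Cxcl10, Kif4, Ckap2, Anln, Il12b, Apol9b, Gm20431, Ifi44, Pttg1, Tpx2, Ndufs8, Ppargc1b and the members listed as exceptions were named after their values were seen. Ccr2, Vcan, Bst2, Itgax, Ctsk and Dcstamp were likewise named after their values were seen. Printed promoter stretches end no more than 30 bases past the start, and motif matches beyond that point were passed over. Alternatives were other scalings, filters, fold limits, thinning, gene classes, and, added after low counts were seen to bunch, counts divided by 4.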

Additional observations from a re-analysis of the deposited data

Results flagged for a closer look

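Rnd2, which encodes a small GTPase, was lower with LPS in the wild-type pair and higher in the deficient pair, each past 2-fold. It had 4581 and 77 counts in wild type, a log2 ratio of -5.40, and 175 and 1951 counts in the deficient libraries, a log2 ratio of 3.55. With 1 library a group the difference was not tested, and Rnd2 shares exonic bases with another entry.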

How the results depend on the processing

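The 2502 higher and 2123 lower genes stayed within 1.5 times those counts with wild-type TMM alone, DESeq2 1.42.0 size factors (2562 and 2081), upper-quartile factors, a minimum of 50 counts, no filter, removal of 1% of the other library, thinning and protein-coding genes alone. Lower genes numbered 3538 with total counts, 3446 at 1.5-fold and 1242 with counts divided by 4. At 4-fold, 1306 were higher and 783 lower, and without shared exonic bases, where 9522 genes were measured, 1587 and 1333. Upper-quartile factors gave 44.6% higher among calls, against 54.1%. The median low share of induced genes, 1.12%, was 0.939% at 20 CPM or more, 1.26% at 500 CPM or more and 1.28% over the 50 lowest. For lower genes, 6.58% became 2.39% at 20 CPM, 38.2% at 500 CPM and 13.1% over 50 genes. In the 250 bases before the start alone, TTTGAA was held by 35.6% of mitosis promoters and the E2F motif by 10.7% of replication promoters. Of 182 named genes called, total counts lost 16, upper-quartile factors 9, 4-fold 41, counts divided by 4 7 and DESeq2 size factors 1. None changed direction, though only 178 could be judged at 50 counts, 171 among protein-coding genes and 126 without shared bases. No paired analysis was possible because each group held 1 library. Leaving out a library was likewise impossible. Depth limits values near 12 counts.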
